A study of Mus musculus with 39 samples.

Results

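The 9 genes described here are the hormones and marker genes of the islet cells that are not beta cells, together with neuropeptides measured in the same islets. They were glucagon (Gcg), somatostatin (Sst), pancreatic polypeptide (Ppy), peptide YY (Pyy), transthyretin (Ttr), retinol-binding protein 4 (Rbp4), the transcription factor Etv1, vasoactive intestinal peptide (Vip) and neuropeptide Y (Npy). They were chosen by name, with the highest-mean probe set of those annotated with that symbol alone, and are 9 of the 19938 genes measured. All 9 were measured, and Etv1 alone had 2 such probe sets.

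RNA from isolated pancreatic islets was hybridized to 39 arrays of the Affymetrix Mouse Gene 1.0 ST type, and values are log2 of the signal, given to 1 decimal. The Pdx1-creLate mice (n = 4) and their wild-type littermates (n = 4, called control) came from backcross generation N8 of that line and were not pregnant. Their sex is not given in the labels, and their sex-linked genes had the male pattern (below). Wild-type C57bl6/J mice were sampled as non-pregnant females (n = 4), at pregnancy day 3.5 (n = 3), at days 6.5, 9.5, 12.5, 15.5 and 18.5 (n = 4 each), and at 10 days post partum (n = 4). Ages, and whether islets of several mice were pooled, are not given in the labels. In Pdx1-creLate mice the Pdx1 promoter, active in beta cells and in part of the delta cells, drives Cre recombinase; the construct also includes a minigene for human growth hormone, as published for this line. Replicates are labelled as biological.

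Islets hold alpha cells, which secrete glucagon to raise blood glucose, delta cells, whose somatostatin restrains both insulin and glucagon release, and cells that secrete pancreatic polypeptide. Transthyretin carries thyroid hormone and, bound to retinol-binding protein 4, vitamin A in blood; in islets the former is abundant in alpha cells and the latter in delta cells. Vip and Npy are released by autonomic nerve endings that reach the islet, and pregnancy is a state in which beta cells expand under lactogenic hormones that act through the prolactin receptor.

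The start-site sequences of 4 of the genes are shown because the Sst and Vip promoters are textbook cAMP-responsive promoters, and because Ppy and Pyy are neighbours whose values moved together (below). RefSeq's promoter table for GRCm38.p6 held 8 of the 9 members; Ttr was not in it. Each run gives the 150 bases before the annotated start, 5′ to 3′ on the gene's strand, with capitals on every match, on either strand, to the cAMP response element TGACGTCA, its core TGACG, or the TATA box TATAAA. The windows are chr16:23890845-23890994 (minus strand, Sst), chr10:5639068-5639217 (plus strand, Vip), chr11:102101320-102101469 (minus strand, Ppy) and chr11:102107833-102107982 (minus strand, Pyy). The Sst window lies inside the longer Sst gene record of the gene table, and the end of the Vip window overlaps the start of the Vip record.
Sst: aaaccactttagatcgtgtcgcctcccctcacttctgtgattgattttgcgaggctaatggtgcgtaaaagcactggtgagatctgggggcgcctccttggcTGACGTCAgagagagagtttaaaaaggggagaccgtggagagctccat
Vip: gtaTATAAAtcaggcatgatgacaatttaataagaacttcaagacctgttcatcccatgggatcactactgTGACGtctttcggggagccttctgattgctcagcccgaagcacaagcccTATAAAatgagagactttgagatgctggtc
Ppy: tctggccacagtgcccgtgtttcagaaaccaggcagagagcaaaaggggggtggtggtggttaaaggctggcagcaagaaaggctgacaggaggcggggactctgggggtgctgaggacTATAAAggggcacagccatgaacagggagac
Pyy: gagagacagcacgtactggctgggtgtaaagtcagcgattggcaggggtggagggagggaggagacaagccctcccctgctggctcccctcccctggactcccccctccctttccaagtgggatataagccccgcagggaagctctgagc

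Sst held the whole element at position -48, counting -1 as the last base before the start, and both of its TGACG matches lie within it, on opposite strands. Vip held 1 TGACG, at -79, and TATAAA at -147 and -30, and Ppy held TATAAA at -31. Of all 32851 promoter entries, 1.36% held TGACGTCA in these 150 bases, 13.3% held TGACG, a count that includes the whole elements, and 7.57% held TATAAA. The STAT element TTCNNNGAA, the site type bound downstream of the prolactin receptor, was in the window of none of the 8 members and in 4.09% of all entries. Matches are a description of the letters and say nothing about binding.

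Beta-cell identity was plain in every array: Iapp, the islet amyloid gene, lay between 13.0 and 13.9, and Ins2 between 11.9 and 12.7. The mean of 19 acinar markers, genes of the enzyme-secreting cells around islets, ranged from 5.52 on a day 3.5 array to 10.49 on a Pdx1-creLate array. Non-pregnant replicate 1 stood apart at the top of its scale: its highest value was 13.3 where every other array reached at least 14.2, and 9 of its probe sets lay at 13 or more against at least 25 elsewhere. Xist, transcribed from the inactive X chromosome, lay at 9.7 to 10.5 in all C57bl6/J groups and at 3.8 to 5.0 in the Pdx1-creLate and control groups, where Y-linked genes averaged 7.2 to 7.7 against at most 3.3 in C57bl6/J. The Pdx1-creLate and control arrays thus match each other in these sex-linked genes, with the pattern of male mice. They differ from all others, which had the female pattern.

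**Figure D1:**
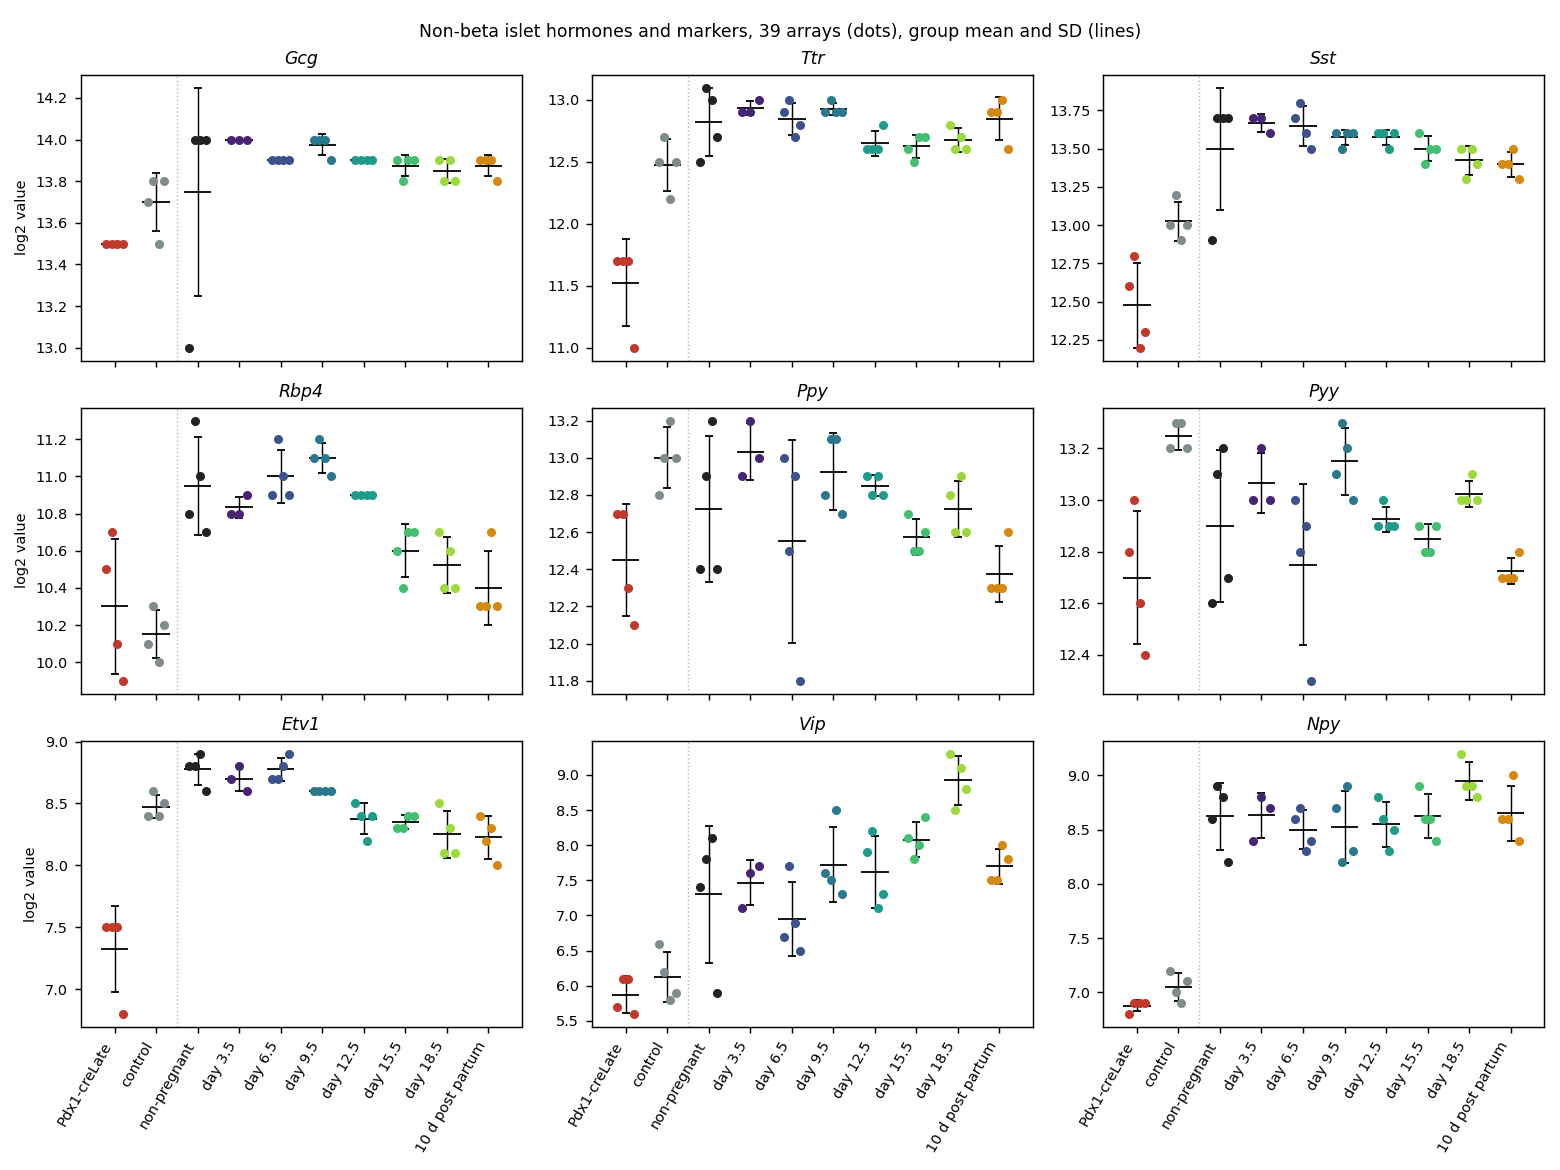
Log2 value of each of the 9 genes (one panel each, y axis) in the 10 groups (x axis); dots are arrays in order of replicate number, the long bar is the group mean and the whisker 1 SD. Npy and Vip lie low in both groups left of the dotted line, Etv1 and Ttr lie lowest in Pdx1-creLate, and Vip is highest at day 18.5.

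In Pdx1-creLate islets, 5 of the 9 genes fell against control littermates and none rose: Etv1, Ttr, Sst, Pyy and Ppy. Gcg, Rbp4, Vip and Npy did not pass the test. Among all genes 6.59% were called in this comparison at an adjusted p under 0.05, and 3.72% were called lower. For those 5 genes every Pdx1-creLate array lay below every control array, a separation found downward in 5.43% of all genes. The median difference of the 9 members was -0.55 on the log2 scale, beside -0.03 over all genes. In whole islets, fewer cells of a type and less RNA per cell cannot be told apart, and this holds for each result below.

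Among the hormones, somatostatin fell and glucagon did not pass the test. Sst, on chromosome 16 (23889573 to 23891342, GRCm38), was at 12.6, 12.8, 12.2 and 12.3 in Pdx1-creLate and at 13.0, 13.2, 12.9 and 13.0 in control islets. The groups did not overlap, and Sst fell by 0.55 ± 0.13 (SE), or 1.46-fold (adjusted p = 0.0156). The adjusted p was 0.0648 without Pdx1-creLate replicate 3, 0.059 without Pdx1-creLate replicate 4 and 0.0605 without control replicate 2. Gcg (chromosome 2, 62474530 to 62483653), which encodes both glucagon and GLP-1, was at 13.5 in all 4 Pdx1-creLate arrays and at 13.7, 13.8, 13.5 and 13.8 in the controls. The groups touched at 13.5, and the difference of -0.20 ± 0.09 did not pass (adjusted p = 0.257; 95% interval -0.40 to 0.00). Gcg was near the top of the array's scale, whose highest value anywhere was 14.5.

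The PP-fold hormones Pyy and Ppy fell together. Pyy (chromosome 11, 102106676 to 102107832), a hormone of several islet cell types and of gut L cells, was at 12.8, 13.0, 12.6 and 12.4 in Pdx1-creLate and at 13.2, 13.3, 13.3 and 13.2 in control islets. The groups did not overlap and Pyy fell by 0.55 ± 0.12 (adjusted p = 0.00961). With the SD of each array's values as a covariate it was at -0.52 and did not pass (adjusted p = 0.0829). Ppy (chromosome 11, 102099931 to 102101319), the hormone that names the PP cell, was at 12.7, 12.7, 12.3 and 12.1 against 12.8, 13.0, 13.2 and 13.0. The groups were separated by a single 0.1 step, and Ppy fell by 0.55 ± 0.14 (adjusted p = 0.0249). That call was lost without Pdx1-creLate replicate 3 (adjusted p = 0.0986) or 4 (0.0759), without control replicate 2 (0.0668), 3 (0.0973) or 4 (0.0619), with the SD covariate (0.0985) and with the replicate number as a block (0.109).

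Of the carriers, transthyretin fell and retinol-binding protein did not. Ttr (chromosome 18, 20664209 to 20674326) was at 11.7, 11.7, 11.7 and 11.0 in Pdx1-creLate and at 12.5, 12.7, 12.2 and 12.5 in control islets. All 4 transgenic arrays lay below the lowest control, and Ttr fell by 0.95 ± 0.15, or 1.93-fold (adjusted p = 0.0012). Rbp4 (chromosome 19, 38116620 to 38125321) was at 10.5, 10.7, 10.1 and 9.9 against 10.1, 10.3, 10.0 and 10.2. The groups overlapped, and the difference was 0.15 ± 0.15 (adjusted p = 0.65; 95% interval -0.17 to 0.47).

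Etv1 (chromosome 12, 38780082 to 38870483), an ETS-family transcription factor, had the widest drop of the 9. It was at 7.5, 7.5, 7.5 and 6.8 in Pdx1-creLate and at 8.4, 8.6, 8.4 and 8.5 in control islets. The groups lay far apart, and Etv1 fell by 1.15 ± 0.14, or 2.22-fold (adjusted p = 0.000109). The other Etv1 probe set gave -0.98 ± 0.12 (adjusted p = 0.000144 over 21789 probe sets).

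The neuropeptides were at the low end of their ranges in both groups. Vip (chromosome 10, 5639193 to 5647617) was at 5.7, 6.1, 6.1 and 5.6 in Pdx1-creLate and at 6.6, 6.2, 5.8 and 5.9 in controls, with overlap and a difference of -0.25 ± 0.17 (adjusted p = 0.466). The median of all probe sets on these arrays was 5.8 or 5.9, close to the Vip values, which therefore do not show that Vip was unchanged. Npy (chromosome 6, 49822710 to 49829507) was at 6.8, 6.9, 6.9 and 6.9 against 7.2, 7.0, 6.9 and 7.1. The groups touched at 6.9, and the difference was -0.18 ± 0.09 (adjusted p = 0.331).

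**Figure D2:**
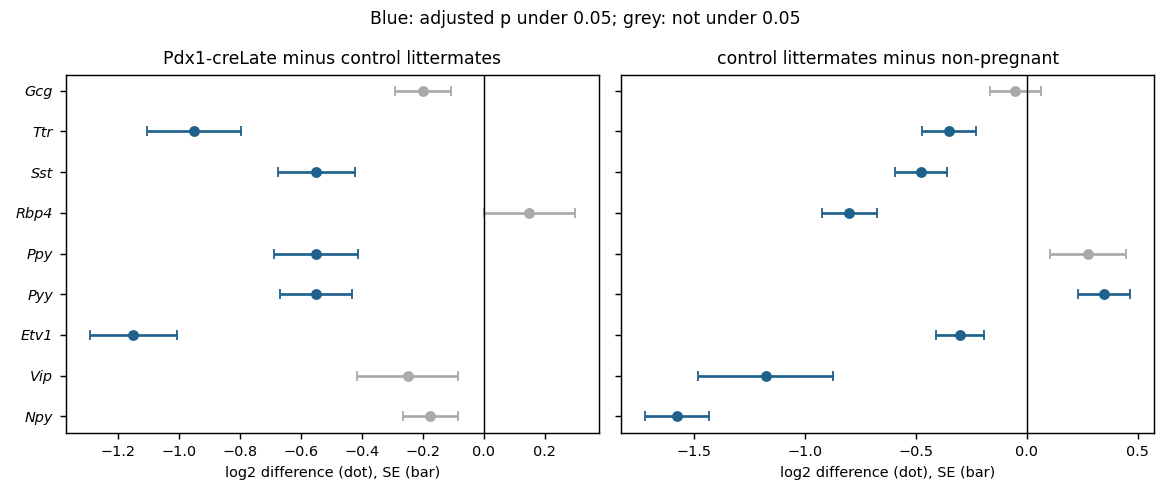
Log2 difference (dot) and its SE (bar, x axis) of the 9 genes (y axis), for Pdx1-creLate minus control littermates (left) and control littermates minus non-pregnant C57bl6/J (right; the x axes differ). Blue dots passed an adjusted p of 0.05; on the left Etv1 and Ttr lie furthest below 0, and on the right Npy and Vip.

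Other markers of the same cell types, listed with earlier results of these data known, moved in part. Over all genes 3.72% were called lower in this comparison and 6.59% in either direction. Of 7 measured alpha-cell markers 2 fell in Pdx1-creLate: Dpp10, a potassium-channel partner, by 1.05 ± 0.15 (adjusted p = 0.000402), and Slc7a2, a transporter of basic amino acids, by 0.80 ± 0.11 (adjusted p = 0.000273). Irx1, Irx2, Pou3f4, Slc38a5 and Smarca1 did not pass, with differences from -0.70 to 0.08, and the list's median was -0.30. Of 7 delta-cell markers 3 fell: Spock3 (-0.63 ± 0.10), Ptprz1 (-0.50 ± 0.11) and Frzb (-0.40 ± 0.10). Hhex, the transcription factor that maintains delta cells, was at -0.53 ± 0.20 (adjusted p = 0.154). Of 4 PP-cell markers limma called 0, and 1 had an unadjusted p under 0.05. Beta-cell markers fell too, 4 of 9, with Ucn3, a beta-cell peptide that acts on delta cells, at -0.93 and Slc2a2, the glucose transporter, at -0.58.

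Receptors and granule genes were followed as the remaining steps of the pathway, in the same comparison (3.72% of all genes called lower, 6.59% in either direction). Of 16 receptors of these peptides 3 fell: the Vip receptor Vipr1 by 1.05 ± 0.11 (adjusted p = 2.55e-05), the glucagon receptor Gcgr by 0.63 ± 0.10 (adjusted p = 0.000972), and Npy1r by 0.35 ± 0.10 (adjusted p = 0.0406). The 5 somatostatin receptors lay between -0.05 and 0.08 and none passed. Of 10 granule and prohormone-processing genes 2 rose, Chgb by 0.95 and Pcsk1, the prohormone convertase, by 0.38, while Scg2, Scg3 and Scg5 fell by 0.38, 0.33 and 0.38. Among 11 other regulatory peptides only Penk, the enkephalin precursor, passed, and it rose by 1.95 ± 0.15 (adjusted p = 1.23e-06). The acinar marker mean was 8.63 to 10.49 in Pdx1-creLate and 8.48 to 9.71 in control islets, with 0 of 19 markers called by limma and 3 at an unadjusted p under 0.05. With that mean as a covariate the same 5 members were called.

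Pregnancy was compared day by day with the same 4 non-pregnant arrays, so these comparisons share their reference. No member passed at days 3.5, 6.5 and 9.5 with limma, and 0, 0 and 1 of the 9 had an unadjusted p under 0.05; over all genes 0.0451%, 0.622% and 19.4% were called. At day 12.5 Etv1 was called (5.27% of all genes). At day 15.5 Etv1 and Rbp4 were called (8.23%), and at day 18.5 Etv1, Rbp4 and Vip (11.1%). At 10 days post partum Etv1 and Rbp4 were called (12.2%). Vip was the one member called higher than in non-pregnant islets, with 8.59% of all genes called higher at day 18.5, and the others were called lower.

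Etv1 declined through pregnancy and stayed low after it. It was at 8.8, 8.8, 8.9 and 8.6 in non-pregnant islets, at 8.5, 8.4, 8.2 and 8.4 at day 12.5, at 8.5, 8.1, 8.3 and 8.1 at day 18.5, and at 8.4, 8.2, 8.3 and 8.0 post partum. From day 12.5 on, every array lay below every non-pregnant array. It fell by 0.40 ± 0.09 at day 12.5 (adjusted p = 0.00369), by 0.53 ± 0.09 at day 18.5 (adjusted p = 9.31e-05) and by 0.55 ± 0.09 post partum (adjusted p = 6.98e-05). The other probe set gave -0.35 at day 12.5, which did not pass (adjusted p = 0.108), and passed at day 15.5, day 18.5 and post partum. Across birth, from day 18.5 to 10 days post partum, Etv1 differed by -0.03 ± 0.09 (adjusted p = 0.841).

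Rbp4 was not called up to day 12.5 and was called lower from day 15.5 on. It was at 10.8, 11.3, 11.0 and 10.7 in non-pregnant islets, at 11.1, 11.2, 11.1 and 11.0 at day 9.5, at 10.9 on all 4 arrays of day 12.5, and at 10.6, 10.4, 10.7 and 10.7 at day 15.5. It was at 10.7, 10.4, 10.6 and 10.4 at day 18.5 and at 10.3, 10.3, 10.7 and 10.3 post partum. The late groups touched the lowest non-pregnant array at 10.7 and did not overlap those of days 9.5 and 12.5. Rbp4 fell by 0.35 ± 0.10 at day 15.5 (adjusted p = 0.0318), by 0.43 ± 0.10 at day 18.5 (adjusted p = 0.00613) and by 0.55 ± 0.10 post partum (adjusted p = 0.000575). The day 15.5 call was lost without day 15.5 replicate 1 (adjusted p = 0.0571) or 2 (0.133) and without non-pregnant replicate 2 (0.197) or 3 (0.0818), with median centring (0.0759), with all 39 arrays in 1 model (0.0788) and with only the 2 groups fitted (0.126). The day 18.5 call was lost with median centring (-0.33, adjusted p = 0.0547) and with only the 2 groups fitted (adjusted p = 0.0522).

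Vip showed the widest range of day means, 1.98 on the log2 scale. It was at 7.4, 7.8, 8.1 and 5.9 in non-pregnant islets, at 6.7, 7.7, 6.9 and 6.5 at day 6.5, at 8.1, 7.8, 8.0 and 8.4 at day 15.5, and at 9.3, 8.5, 9.1 and 8.8 at day 18.5. At day 15.5 the difference of 0.78 ± 0.32 did not pass (adjusted p = 0.14), and it passed without non-pregnant replicate 3 (adjusted p = 0.0499). Over all alternative runs the day 15.5 difference lay between 0.31 and 1.04. The day 18.5 arrays all lay above the non-pregnant ones, among which replicate 4 was far below the others. Vip rose by 1.63 ± 0.32 at day 18.5, or 3.08-fold (adjusted p = 0.000606). Over all alternative runs the day 18.5 difference lay between 1.08 and 1.89. At 10 days post partum Vip was at 7.5, 7.5, 8.0 and 7.8, below every day 18.5 array. Across birth it fell by 1.23 ± 0.32, or 2.34-fold (adjusted p = 0.0066). With the SD of each array's values as a covariate neither passed (adjusted p = 0.128 and 0.647).

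Npy, the other neuropeptide, was highest at day 18.5, at 9.2, 8.9, 8.9 and 8.8, beside 8.6, 8.9, 8.8 and 8.2 in non-pregnant islets. The groups overlapped, and the difference of 0.33 ± 0.15 did not pass (adjusted p = 0.18). Markers of autonomic nerves were read beside these peptides. The mean of 8 such markers was 6.60 to 6.95 in non-pregnant islets, 6.99 to 7.11 at day 18.5 and 6.66 to 6.79 post partum. At day 18.5 limma called 0 of the 8 against non-pregnant islets, with 2 at an unadjusted p under 0.05. Across birth 30.2% of all genes were called in either direction, and 5 of the 8 fell: Prph, a neuronal intermediate filament, by 0.83, Slc18a3, the vesicular acetylcholine transporter, by 0.48, Th, tyrosine hydroxylase, by 0.38, Ret by 0.35 and Elavl4 by 0.23. Tac1, the substance P precursor, rose by 1.35 ± 0.31 at day 18.5 (adjusted p = 0.00335) and fell by 1.10 ± 0.31 across birth (adjusted p = 0.0104). Markers of other cell types fell across birth as well: 7 of 8 endothelial markers (Cd34 by 0.63, Plvap by 0.60 and Kdr by 0.53 among them) and 4 of 8 stellate and fibroblast markers (Dcn, Col3a1, Rgs5 and Pdgfrb). The part of nerve, endothelial or stromal content in the Vip values was not tested.

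Gcg and Sst were not called on any pregnancy day or post partum, and non-pregnant replicate 1 bore on both. Gcg was near the top of the array's scale, where a change can be compressed, so its values do not show that it was stable. Gcg was at 13.0, 14.0, 14.0 and 14.0 in non-pregnant islets and between 13.8 and 14.0 on all 27 pregnancy and post partum arrays. The 13.0 came from the array whose highest value was 13.3, and after renewed quantile normalization of all arrays Gcg was 13.85 on it, beside 13.88 to 13.93 on the other 3. Sst was at 12.9, 13.7, 13.7 and 13.7 in non-pregnant islets, at 13.5, 13.3, 13.5 and 13.4 at day 18.5, and at 13.4, 13.4, 13.5 and 13.3 post partum. Differences of -0.08 ± 0.11 and -0.10 ± 0.11 did not pass. Without non-pregnant replicate 1 both passed, at -0.28 (adjusted p = 0.0135) and -0.30 (adjusted p = 0.00911), and with renewed quantile normalization at -0.28 (adjusted p = 0.00375) and -0.24 (adjusted p = 0.00972). Ttr at day 15.5 was called without the same array (-0.31, adjusted p = 0.05 after rounding) and not with it.

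Pyy and Ppy were called at no single day against non-pregnant islets, although without non-pregnant replicate 3 Pyy was called at day 9.5 (0.35, adjusted p = 0.0356). Pyy was at 12.6, 13.1, 13.2 and 12.7 in non-pregnant islets, at 13.0, 13.0, 13.1 and 13.0 at day 18.5, and at 12.7, 12.7, 12.7 and 12.8 post partum. Across birth the groups did not overlap, and Pyy fell by 0.30 ± 0.11 (adjusted p = 0.0435). Among all genes 30.2% were called across that step, so 2 called of 9 members, Pyy and Vip, is no higher than the background share. Npy differed by -0.30 ± 0.15 and was called without post partum replicate 3 (adjusted p = 0.0411). The Pyy call was lost without any 1 of replicates 1, 2, 3 and 4 of day 18.5 (adjusted p = 0.0696, 0.0554, 0.0996 and 0.0754) or of the post partum group (0.0811, 0.0847, 0.0635 and 0.0623). Ppy was at 12.4, 12.9, 13.2 and 12.4 in non-pregnant islets and at 12.3, 12.3, 12.3 and 12.6 post partum, with overlap and a difference of -0.35 ± 0.17 (adjusted p = 0.184).

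**Figure D3:**
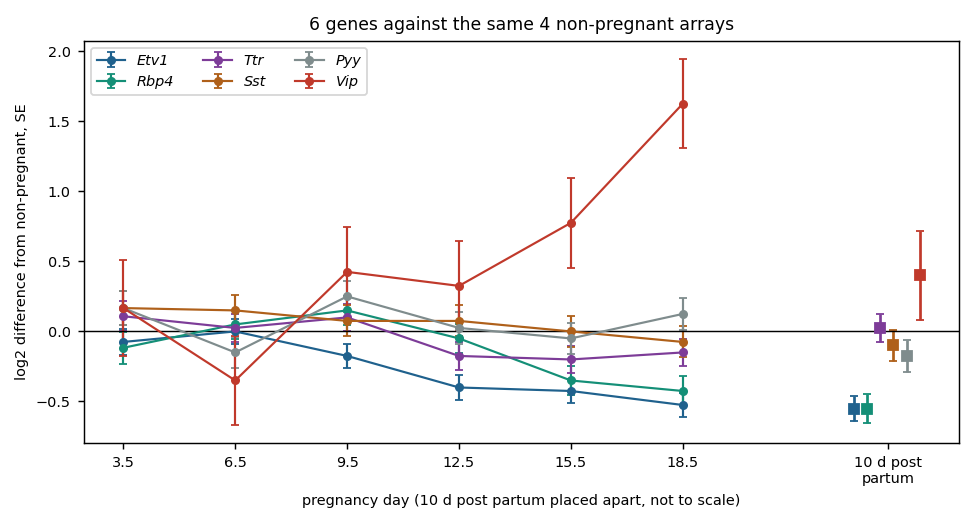
Log2 difference from non-pregnant islets (y axis, bars are SE) of 6 genes at the 6 pregnancy days (circles, x axis in days) and at 10 days post partum (squares, set apart and spread sideways for legibility). Etv1 and Rbp4 end at -0.53 and -0.43 at day 18.5, where Vip reaches 1.63; all points share the 4 non-pregnant arrays.

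The contrasts among the 6 pregnancy days leave out the non-pregnant arrays, which still entered the estimate of spread in the shared model. In limma's F-test 5 members passed, Etv1 (adjusted p = 0.00012), Rbp4 (0.000394), Vip (0.000613), Ttr (0.0251) and Pyy (0.0436), beside 38.6% of all genes. Ttr ran from 12.9, 13.0, 12.9 and 12.9 at day 9.5 to 12.6, 12.5, 12.7 and 12.7 at day 15.5, with no overlap, and its day means spanned 0.31. The day means of Rbp4 spanned 0.58, of Etv1 0.53 and of Pyy 0.40. The Ttr call was lost without day 15.5 replicate 2 (adjusted p = 0.0505). The Pyy call was lost in 16 of 23 fits that each left out 1 array, with adjusted p from 0.0503 to 0.0918: replicates 1 and 2 of day 3.5, 2 and 4 of day 6.5, 1, 2 and 3 of day 9.5, 1, 3 and 4 of day 12.5, 2, 3 and 4 of day 15.5, and 1, 3 and 4 of day 18.5. Without day 6.5 replicate 1 Ppy was called as well (adjusted p = 0.0403). Sst was not called in the main F-test (adjusted p = 0.374) and was called under 1 alternative processing or model (adjusted p = 0.0131).

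Some markers of alpha cells fell in pregnancy. Against non-pregnant islets 1 of 7 fell at day 9.5 (Slc7a2, -0.25, adjusted p = 0.0219), 2 at day 12.5, 3 at day 15.5, 3 at day 18.5 and 4 post partum, and none rose in these 5 comparisons. Over all genes 19.4%, 5.27%, 8.23%, 11.1% and 12.2% were called in either direction. Dpp10 fell by 0.58 at day 12.5 and by 0.78 post partum, and Slc7a2 by 0.40 and 0.48. Irx1 and Irx2, transcription factors, fell by 0.30 and 0.33 post partum. Slc38a5 was at 0.25 at day 9.5, -0.30 at day 18.5 and 0.40 post partum, none of them called. Across birth Slc38a5 rose by 0.70 (adjusted p = 0.00256). Pou3f4 (0.03) and Smarca1 (-0.25) did not pass post partum. Of the 7 delta-cell markers only Frzb was called on a pregnancy day, lower at day 15.5 (-0.28, adjusted p = 0.0394). Post partum 3 of the 7 fell (Hhex by 0.60, Spock3 by 0.48, Ptprz1 by 0.43) and Nptx2 rose by 0.75. Among PP-cell markers only Vipr2, also a Vip receptor, was called on a pregnancy day, lower at day 9.5 (-0.50, adjusted p = 0.00207). The Vip receptor Vipr1 was lower from day 9.5 (-0.35) to day 18.5 (-0.33) and post partum (-0.45), and the GLP-1 receptor Glp1r rose by 0.35 at day 18.5. Of the 8 endocrine transcription factors 4 fell post partum, Rfx6 by 0.53, Isl1 by 0.40, Foxa2 by 0.33 and Pax6 by 0.23. Markers of other cell types fell in the same comparison: 3 of 8 endothelial markers (Cd34 by 0.40, Kdr by 0.38 and Tie1 by 0.28) and 3 of 8 stellate and fibroblast markers (Col3a1 by 0.63, Pdgfrb by 0.30 and Rgs5 by 0.28). Their part in these results was not tested.

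The transgenic and mid-pregnancy differences were compared directly, with mid-pregnancy taken as the mean of days 9.5, 12.5 and 15.5 against non-pregnant islets. The transgenic difference lies between groups with the male pattern of sex-linked genes, the mid-pregnancy difference between female C57bl6/J groups. Sex, strain and any batch thus cannot be told apart from transgene against pregnancy in this comparison. Of the 9 members, Etv1 alone was called in mid-pregnancy, at -0.33 ± 0.07 (adjusted p = 0.00175; 9.24% of all genes were called). The difference between both effects was called for 4 members, beside 5.48% of all genes, and in each the transgenic effect was the lower. For Ttr it was -0.86 ± 0.16 (adjusted p = 0.000295), for Etv1 -0.82 ± 0.14 (adjusted p = 0.000133), for Pyy -0.63 ± 0.15 (adjusted p = 0.00736) and for Sst -0.60 ± 0.15 (adjusted p = 0.0114). For Sst it did not pass after renewed quantile normalization (adjusted p = 0.056). Gcg (-0.37 ± 0.15), Ppy (-0.61 ± 0.22), Vip (-0.76 ± 0.39), Npy (-0.12 ± 0.19) and Rbp4 (0.23 ± 0.16) did not pass, and Ppy did without non-pregnant replicate 3 (-0.77, adjusted p = 0.0303).

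The 2 wild-type groups outside pregnancy, control littermates (with the male pattern) and C57bl6/J females, differed from each other in 7 of the 9 members, beside 20% of all genes. Npy was at 7.2, 7.0, 6.9 and 7.1 in controls and at 8.6, 8.9, 8.8 and 8.2 in C57bl6/J, with no overlap, and was lower in controls by 2.98-fold (log2 -1.58 ± 0.14, adjusted p = 5.52e-10). Rbp4 was likewise separate, at -0.80 ± 0.12 (adjusted p = 1.46e-05). Vip was at -1.18 ± 0.30 (adjusted p = 0.00522), with overlap through the 5.9 of non-pregnant replicate 4. Sst (-0.48), Ttr (-0.35) and Etv1 (-0.30) were also called lower and Pyy (0.35) higher, with overlapping groups. Gcg was not called (-0.05 ± 0.12), and without non-pregnant replicate 1 it was (-0.30, adjusted p = 0.00101). The Ttr call was lost without control replicate 1, 3 or 4 or non-pregnant replicate 2 or 3 (adjusted p from 0.0591 to 0.17). The Pyy call was lost without control replicate 2 or 3 or non-pregnant replicate 1 or 4 (0.064 to 0.147), and the Etv1 call without control replicate 1, 3 or 4 or non-pregnant replicate 1, 2 or 3 (0.0715 to 0.13). The groups also differed in strain label and in Xist and Y-linked genes, and strain, sex and any batch cannot be told apart here.

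In the order of group means, most neighbouring groups overlapped. For Npy the 8 C57bl6/J groups lay between 8.50 and 8.95 and the step down to controls at 7.05 was the single gap between neighbours that did not overlap. For Vip the single gap was between day 18.5 (8.93) and day 15.5 (8.08). For Ttr it was the step from controls (12.48) to Pdx1-creLate (11.53), and for Etv1 the step from the post partum group (8.23) to Pdx1-creLate (7.33). Sst had gaps on both sides of controls (13.03), which lay below the post partum group (13.40) and above Pdx1-creLate (12.48). Rbp4 had its gap between day 3.5 (10.83) and day 15.5 (10.60), while Gcg, Ppy and Pyy had no gap between neighbours.

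The members were also set against each other and against all other genes over the 39 arrays, as a description. These arrays share groups, processing and tissue, so each correlation between members is given for levels and for deviations from the group means. Ppy and Pyy, whose genes lie 5356 bases apart on the same strand with no gene of the table between them, had r = 0.91 for levels and 0.93 for deviations. On day 6.5, for example, replicate 4 was lowest for both, with Ppy at 11.8 and Pyy at 12.3. Whether probes of one read RNA of the other was not tested. Vip and Npy had r = 0.85 for levels and 0.69 for deviations. Gcg and Sst had 0.81 and 0.77, and the latter was 0.37 without non-pregnant replicate 1.

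The genes most like each member were ranked by Pearson r. A single value is for levels unless deviations are named, and values for levels also follow the differences between groups. Etv1 was most like Pappa2, a protease of insulin-like growth factor binding proteins (r = 0.96 for levels, 0.82 for deviations), followed by Sfrp5 (0.94), Dpp10 (0.93) and Vipr1 (0.91). Pappa2 was at 7.3 to 8.3 in Pdx1-creLate and at 9.4 to 9.8 in control islets. Ttr was most like the complement gene C8b (0.91 for levels, 0.79 for deviations), Scg5 (0.91) and Pappa2 (0.91). Sst was most like Scg5 (0.91 for levels, 0.72 for deviations), the chaperone of prohormone convertase Pcsk2. Vip was most like Tac1 (0.91 for levels, 0.84 for deviations) and Stmn2, a neuronal tubulin regulator (0.86 and 0.85). For deviations Npy was most like Stmn2 (0.74), and for levels like Xist (0.94), which follows the split of the groups described above. Rbp4 was most like Ocrl (0.85) and, for deviations, Serping1 (0.87). Ppy was most like Tspan8 (0.79 for levels, 0.72 for deviations) and Pyy like Cers4 (0.79). Gcg was most like Baiap2l1 for levels (0.89, and 0.90 for deviations) and Iapp for deviations (0.92). Both depended on non-pregnant replicate 1. Without it Baiap2l1 was at 0.79 and rank 57 for levels and at 0.03 for deviations, and Iapp was at 0.16 for deviations.

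**Figure D4:**
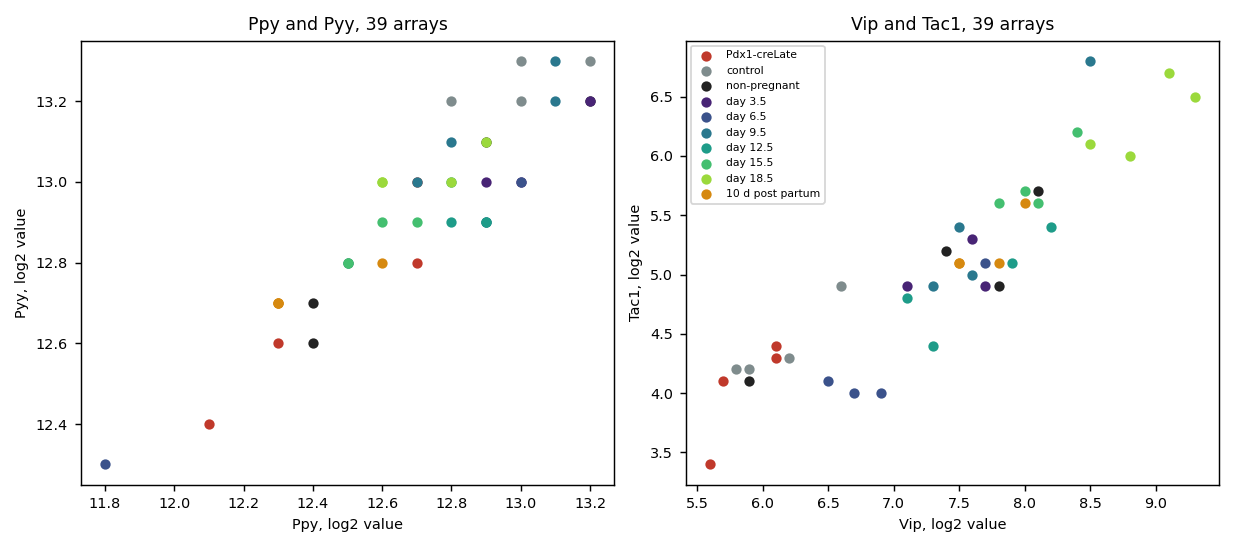
Log2 values of Pyy against Ppy (left) and of Tac1 against Vip (right) on the 39 arrays, coloured by group; arrays with equal values overlie each other. Ppy and Pyy rise together across and within groups (r = 0.91), and the day 18.5 arrays hold the upper end of Vip with Tac1 between 6.0 and 6.7.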

How the data were processed

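Biotin-labelled islet RNA was hybridized to Affymetrix Mouse Gene 1.0 ST arrays. The deposited log2 values were made by the authors with RMA in Affymetrix Expression Console, per the submitters' processing notes; the version, and whether all arrays were normalized as 1 set, are not given in the sources used here. Of 35556 probe sets, 21789 have 1 symbol, 1621 several and 12146 none; the highest-mean probe set of each symbol gave 19938 genes, with no filter on low values. Tests were two-sided and came from limma 3.58.1 under R 4.3.3 (lmFit and eBayes on group means), and p-values were adjusted by Benjamini-Hochberg across the whole gene table, with 0.05 as the threshold. The transgene comparison used its 8 arrays, the pregnancy comparisons 1 model of 31 C57bl6/J arrays, and the comparison of both effects and of both wild-type groups all 39. The fits were tested on simulated data. The array number limits the precision, and signal over background limits what dim genes show. Genes named are the 9 members, some of the 5 genes most like each, and some or all called genes of a list. Alpha-, delta- and PP-cell markers and receptors could be named whatever their result. The members and lists were chosen with earlier results of these data known. Of 151 genes in 17 lists, 137 had a value in the gene table, and only those were used. Positions and promoters are RefSeq's for GRCm38, and figures were made with Python 3.11.15 and matplotlib 3.10.9. Alternatives were renewed quantile normalization, median centring, dim genes left out, other models, covariates, the replicate number as a block, and each array left out.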

Additional observations from a re-analysis of the deposited data

Results flagged for a closer look

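Within 76 groups of 4 arrays with any spread, 17 had 1 array set apart from the other 3. Chance flags about 1 in 20 groups, and because values carry 1 decimal, 3 equal values and a single 0.1 step are enough. Non-pregnant replicate 1 was low for Gcg (13.0, others 14.0) and Sst (12.9, others 13.7). Pdx1-creLate replicate 4 was low for Ttr (11.0, others 11.7) and Etv1 (6.8, others 7.5), and replicate 1 was low for Npy (6.8, others 6.9). At day 9.5 Gcg was 13.9 on replicate 4, and replicate 2 was at 13.0 for Ttr and 13.5 for Sst. At day 12.5 Ttr was 12.8 on replicate 4, Sst 13.5 on replicate 3 and Pyy 13.0 on replicate 2. Gcg was 13.8 on day 15.5 replicate 2, and Pyy 13.1 on day 18.5 replicate 3. Post partum replicate 4 was at 13.8 for Gcg, 12.6 for Ppy and 12.8 for Pyy, and replicate 3 at 10.7 for Rbp4.

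The transgenic difference was lower than the mid-pregnancy difference, by the test of the difference itself, for Ttr (-0.86), Etv1 (-0.82), Pyy (-0.63) and Sst (-0.60). Sex and strain differ between both sets of groups and cannot be told apart from transgene against pregnancy here.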

How the results depend on the processing

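No member's called difference changed sign under any alternative run. In Pdx1-creLate 3 members were called with the array SD as a covariate (Etv1, Ttr and Sst). At day 9.5 1 was called after renewed quantile normalization (Etv1) and 1 after median centring (Pyy). At day 15.5 1 was called with median centring, with all 39 arrays in 1 model and with only the groups compared. At day 18.5 5 were called after renewed quantile normalization, which added Ttr and Sst. The Rbp4 call at day 18.5 was lost with median centring and with only the groups compared. Across birth 1 was called after renewed quantile normalization, 1 with all 39 arrays, 4 with median centring and 0 with the SD covariate. Among days 3 were called with all 39 arrays in 1 model, Ttr and Pyy being lost, and Pyy was also lost with trend and robust eBayes (adjusted p = 0.0503) and with the acinar (0.0916) or SD (0.294) covariate. Between the wild-type groups 4 were called when only those were fitted, Ttr, Sst and Pyy being lost, and Ttr and Etv1 were lost with median centring (adjusted p = 0.172 and 0.261). Causes were not tested.

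With 1 array left out in turn, the members called ranged from 3 to 5 in Pdx1-creLate, 0 to 1 at day 9.5, 1 to 3 at day 15.5, 3 to 4 at day 18.5, 2 to 3 post partum, 1 to 2 across birth, 3 to 6 among days, 4 to 5 for the difference of effects and 4 to 6 between the wild-type groups. The other Etv1 probe set gave means of 8.28 in control, 8.55 at day 9.5, 8.13 at day 15.5 and 8.03 post partum.

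The shared replicate numbers were not treated as pairs: in 0 of 32 pairs of groups did every pair of same-numbered arrays correlate above 0.1. Single same-numbered pairs ran from -0.34 to 0.31. Differently numbered arrays were not compared, so partial pairing was not tested. With the replicate number as a block 4 members were called in Pdx1-creLate, Ppy being lost (adjusted p = 0.109), 2 at day 15.5, 3 at day 18.5, 2 post partum, 2 across birth and 5 among days, and the calls of the other comparisons were the same.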
